A study of Mus musculus with 12 samples.

Results

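Hippocampal RNA of mice given an siRNA against brain-derived neurotrophic factor (BDNF) through the nose was compared with that of mice given a scramble siRNA by the same route. The comparison used 8 of the 12 libraries of the study, 4 labelled siBdnf and 4 labelled siScramble, and the other 4 libraries, labelled siHdac4, had received an siRNA against histone deacetylase 4. All 3 groups were C57BL/6 mice that received 10 µg of siRNA and were killed after 3 days, so strain, route, dose, region and time were shared. The labels leave out the age of the animals, the cells that the siRNA reached and whether any 2 libraries share an animal. P-values therefore measure the spread between libraries, which may be technical, and values are given in the order of libraries 1 to 4. Of 22306 loci in the deposited table, 12218 were protein-coding. A mean of at least 1 FPKM (fragments mapped to a gene, scaled to its length and to all mapped fragments of the library) over the 8 libraries was reached by 11076 of these. Of those, 5 had a 0 in every library of a group and were set aside, which left 11071 genes to be described. Celf2, a regulator of splicing and 1 of the 5, was listed at 102, 91.8, 99.6 and 105 FPKM in the siScramble libraries and at 0 in every siBdnf and siHdac4 library, with a p of 1 in the authors' deposited table. A 0 throughout a group can be a failed estimate, so nothing is read from it.

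BDNF is a secreted growth factor of the brain that is made as a precursor, cut by proprotein convertases such as furin, and released from dense-core vesicles. It binds the receptor tyrosine kinase TrkB, the product of Ntrk2, which signals through the ERK, PI3K-AKT and phospholipase C gamma routes to the actin cytoskeleton, to translation and to transcription factors such as CREB. In the hippocampus BDNF is known for its part in synaptic plasticity and in the survival and growth of newborn granule neurons. An siRNA is a short double-stranded RNA that guides the Argonaute proteins to a matching transcript.

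The siBdnf libraries were more alike than the siScramble libraries. Pearson correlations of log2(FPKM + 1) across genes ran from 0.984 to 0.986 within siBdnf and from 0.963 to 0.976 within siScramble, where genes are not independent replicates. The median SD of a gene on the log2 scale was 0.103 in siBdnf and 0.156 in siScramble, and 8086 of 11071 genes had the larger SD in siScramble. The tables hold no read totals. The value of a single read relative to siScramble library 1 could be read from the steps between low values for 5 of the other 7 libraries and lay between 0.966 and 1.31, the highest being siScramble library 2. Markers of the choroid plexus, the tissue of the ventricles that lies against the hippocampus, stood apart in siScramble libraries 1 and 3. The mean level of 17 such markers was 3.29, 1.55, 4.82 and 1.34 on the log2(FPKM + 1) scale in the siScramble libraries and 2.02, 1.48, 1.43 and 1.27 in the siBdnf libraries. The hippocampal markers Prox1 of granule neurons, at 10.4 ± 1.14 FPKM in siScramble and 11.2 ± 1.08 in siBdnf, and Calb1, at 43.4 ± 6.83 FPKM in siScramble and 45.8 ± 3.19 in siBdnf (SD, n = 4 each), were present in every library.

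No difference in the targeted transcript was detected. Bdnf (chromosome 2, 109674701 to 109730687 in the deposited coordinates) was at 5.33, 5.51, 5.14 and 5.50 FPKM in the siScramble libraries. It was at 5.19, 4.84, 5.29 and 5.43 FPKM in siBdnf and at 5.94, 6.46, 5.38 and 5.15 FPKM in siHdac4. The siBdnf and siScramble values overlapped. The log2 fold change on the log2(FPKM + 1) scale was −0.043 (95% interval −0.20 to 0.12; limma adjusted p = 0.916), and the exact two-sided permutation p was 0.286, where 4 against 4 libraries can give no less than 0.0286. The interval leaves room for a decrease of up to 0.20 on that scale. Hdac4, the target of the other siRNA, differed by 0.038 on the same scale in siBdnf (95% interval −0.21 to 0.29; limma adjusted p = 0.958), with values from 35.9 to 44.8 FPKM in siBdnf and from 31.5 to 45.9 FPKM in siScramble. The tables hold RNA only, so the level of BDNF protein was not measured.

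Across the genes, 2 fell in siBdnf and none rose at a limma adjusted p below 0.05, which is 0.0181% of the 11071 tested. Both were low in all 4 siBdnf libraries. Cpd encodes carboxypeptidase D, an enzyme of the trans-Golgi network that trims basic residues from peptides and proteins after proprotein convertases have cut them. It was at 24.1, 24.97, 23.6 and 25.8 FPKM in the siScramble libraries and at 15.8, 15.3, 15.8 and 16.2 FPKM in siBdnf. Every siBdnf library lay below every siScramble library, with a gap larger than the range within either group. Cpd (chromosome 11, 76777178 to 76847050) fell by 35.9%, from 24.6 ± 0.985 to 15.8 ± 0.366 FPKM (SD, n = 4 each; log2 fold change −0.61, SE 0.053, limma adjusted p = 0.0100). In the authors' deposited table Cpd had a log2 fold change of −0.64 and an FDR of 0.00739.

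Pacrgl was at 23.2, 18.98, 13.9 and 13.5 FPKM in the siScramble libraries and at 4.90, 4.73, 5.99 and 5.76 FPKM in siBdnf. The groups lay far apart, although siScramble libraries 1 and 2 stood above libraries 3 and 4. Pacrgl (chromosome 5, 48372349 to 48513406) fell by 69.2%, from 17.4 ± 4.62 to 5.35 ± 0.623 FPKM (SD, n = 4 each; log2 fold change −1.51, SE 0.16, limma adjusted p = 0.0367). In the authors' deposited table its FDR was 0.967. The deposited Pacrgl locus covers 141058 bases, while the RefSeq gene covers 16365 bases, and the locus also holds, in the GENCODE annotation of GRCm38, part of Kcnip4 on the minus strand and of 5730480H06Rik on the plus strand, and the sources used here do not say how reads of overlapping genes were assigned. Among the 33 genes named one by one here, 12 had another protein-coding gene in their locus, namely Pacrgl, Syn1, Zic1, Supv3l1, Fam13c, Rac1, Nisch, Pex3, Sugct, Creld1, Rabep1 and the merged locus of Chd3.

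With 1 library fewer, the limma adjusted p of both genes changed more than the size of their difference. Leaving out each library in turn kept the log2 fold change of Cpd between −0.63 and −0.59, while its limma adjusted p ran from 0.0284 to 0.0971 and missed 0.05 without siScramble library 2 and without each of the 4 siBdnf libraries. For Pacrgl the log2 fold change stayed between −1.61 and −1.36 and the limma adjusted p ran from 0.0368 to 0.224, missing 0.05 in those 5 cases and without siScramble library 3. Without both siScramble libraries of high choroid plexus level the values were −0.65 (limma adjusted p = 0.0540) for Cpd and −1.43 (limma adjusted p = 0.107) for Pacrgl.

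**Figure D1:**
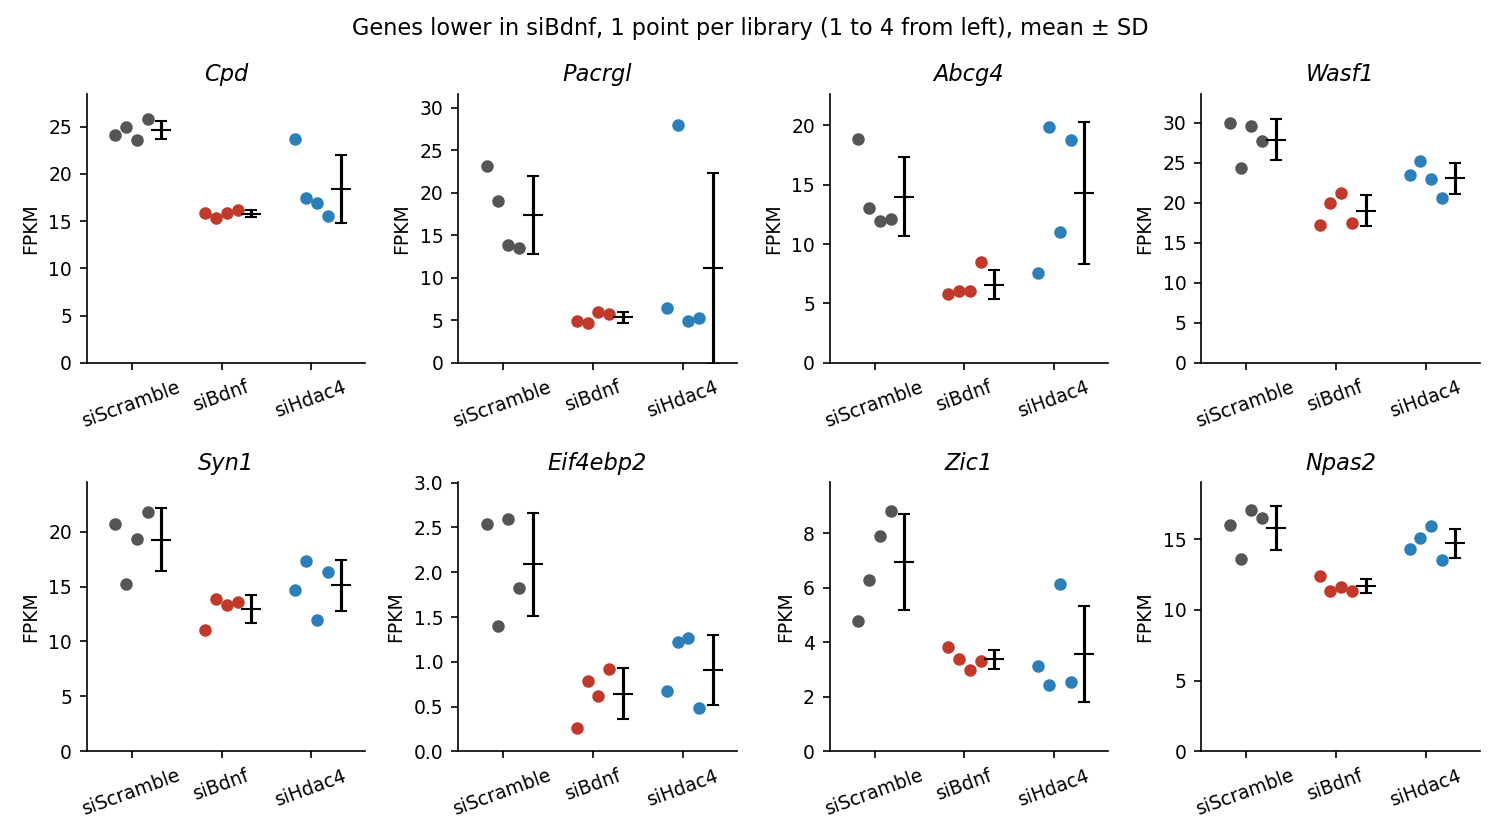
FPKM of 8 genes that were lower in all 4 siBdnf libraries than in all 4 siScramble libraries, with 1 point per library in the order 1 to 4, and the group mean ± SD (n = 4) to the right of each group. The siBdnf points of Cpd lie between 15.3 and 16.2 FPKM and its siScramble points between 23.6 and 25.8 FPKM, while for Pacrgl siHdac4 library 2 stands at 27.9 FPKM beside 3 libraries under 7 FPKM.

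Beyond these 2 genes, groups that did not overlap were counted as a description. All 4 siBdnf libraries lay above all 4 siScramble libraries at 346 genes (3.13% of those tested) and below them at 221 (2.0%). An unadjusted limma p below 0.05 was met by 469 genes that were higher (4.24%) and 364 that were lower (3.29%) in siBdnf. The median log2 fold change over all genes was 0.0021, with 5604 of 11071 above 0. None of the other genes described below passed the adjusted threshold against siScramble, and those named one by one were chosen for groups that did not overlap and for the size of the change or the level.

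**Figure D2:**
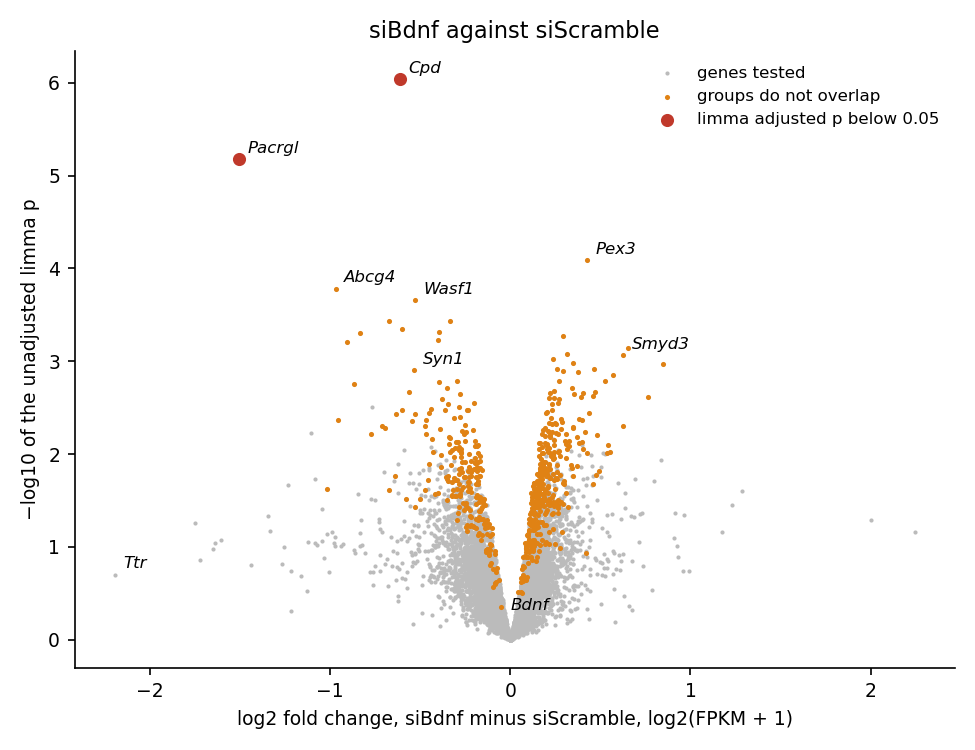
Each point is 1 of the 11071 genes, by its log2 fold change on the log2(FPKM + 1) scale (x axis) and the −log10 of its unadjusted limma p (y axis). Cpd and Pacrgl are the 2 points past the adjusted threshold, genes whose groups do not overlap are orange, and Bdnf lies near 0 on both axes while Ttr, a choroid plexus gene, lies far left at a low y value.

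The other genes described here lay below siScramble in all 4 siBdnf libraries. Wasf1 encodes WAVE1, which carries signals of the GTPase Rac1 to the actin nucleator Arp2/3 in dendritic spines. It was at 29.9, 24.3, 29.6 and 27.7 FPKM in the siScramble libraries and at 17.2, 19.9, 21.3 and 17.5 FPKM in siBdnf (log2 fold change −0.53, SE 0.090, limma adjusted p = 0.486). The siHdac4 values, 23.4, 25.2, 22.9 and 20.6 FPKM, overlapped both groups. Syn1 encodes synapsin I, a phosphoprotein of synaptic vesicles. It was at 20.7, 15.2, 19.3 and 21.8 FPKM in siScramble and 11.01, 13.9, 13.3 and 13.6 FPKM in siBdnf (log2 fold change −0.53, SE 0.12, limma adjusted p = 0.604), and in the authors' deposited table it had a log2 fold change of −0.57 with an FDR of 0.0242. Of the same pathway, Wasl, encoding N-WASP, was at 28.7 ± 1.05 FPKM in siScramble and 23.97 ± 2.11 in siBdnf (SD, n = 4 each). Rac1 itself was at 58.1 ± 2.67 FPKM in siScramble and 50.2 ± 2.70 in siBdnf (SD, n = 4 each). Both had groups that did not overlap, with log2 fold changes of −0.25 and −0.21.

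Abcg4, an ATP-binding cassette transporter of neurons and glia linked to sterol export, was at 18.9, 13.1, 11.9 and 12.1 FPKM in siScramble and 5.77, 6.09, 6.08 and 8.46 FPKM in siBdnf (log2 fold change −0.97, SE 0.16, limma adjusted p = 0.456). The siHdac4 libraries spanned both groups at 7.53, 19.8, 10.999 and 18.7 FPKM. Eif4ebp2 encodes the form of the translation repressor 4E-BP that prevails in the brain, and was low in every library, at 2.54, 1.40, 2.59 and 1.82 FPKM in siScramble and 0.257, 0.781, 0.616 and 0.918 FPKM in siBdnf. Its log2 fold change was −0.91 (SE 0.18, limma adjusted p = 0.525), and with a mean under 1 FPKM in siBdnf it passed the filter on the mean through siScramble, which favours this direction. In siHdac4, Eif4ebp2 was at 0.674, 1.22, 1.27 and 0.488 FPKM, a log2 fold change of −0.69 against siScramble.

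Among transcription factors, Npas2, a partner of BMAL1 in the circadian clock, was at 16.02, 13.6, 17.1 and 16.5 FPKM in siScramble and 12.4, 11.4, 11.6 and 11.3 FPKM in siBdnf (log2 fold change −0.40, limma adjusted p = 0.525). Zic1, a zinc-finger factor of the medial forebrain and the meninges, was at 4.79, 6.29, 7.90 and 8.79 FPKM and 3.84, 3.38, 2.97 and 3.33 FPKM (log2 fold change −0.83, limma adjusted p = 0.525). Its siHdac4 values were 3.13, 2.45, 6.15 and 2.56 FPKM, a log2 fold change of −0.84 against siScramble. The Zic1 difference between the siRNA groups was 0.0016 (limma adjusted p = 0.998). The Zic1 values of siScramble libraries 1 and 3, at 4.79 and 7.90 FPKM, were not the highest pair of their group, and without these libraries the log2 fold change was −0.95. Supv3l1, a mitochondrial RNA helicase, stood at 21.9 ± 1.41 FPKM in siScramble and 17.1 ± 0.485 in siBdnf, and Nol10, a nucleolar protein gene, at 14.9 ± 1.41 FPKM in siScramble and 11.03 ± 0.298 in siBdnf (SD, n = 4 each). Their log2 fold changes were −0.34 and −0.39. Fam13c was at 11.7 ± 1.03 FPKM in siScramble and 8.69 ± 0.871 in siBdnf, with siHdac4 split between 9.47 and 21.4 FPKM. Cfap52, a gene of motile cilia, was at 2.82, 2.31, 3.45 and 2.61 FPKM in siScramble and 1.52, 1.29, 1.52 and 1.63 FPKM in siBdnf, and is taken up with its list.

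The promoter windows of Cpd, Pacrgl and Syn1 are shown because the first 2 are the genes that passed the test and the last 2 were the only named genes whose window held the full cyclic AMP response element, the 8 letters TGACGTCA read by CREB. Each window runs from 250 bases before to 50 bases after the RefSeq start of the gene (GRCm38.p6), is written 5′ to 3′ on the gene's strand, and has the element in capitals. The window of Cpd, on the minus strand at chr11:76846959-76847258, holds no copy of these letters.
Cpd: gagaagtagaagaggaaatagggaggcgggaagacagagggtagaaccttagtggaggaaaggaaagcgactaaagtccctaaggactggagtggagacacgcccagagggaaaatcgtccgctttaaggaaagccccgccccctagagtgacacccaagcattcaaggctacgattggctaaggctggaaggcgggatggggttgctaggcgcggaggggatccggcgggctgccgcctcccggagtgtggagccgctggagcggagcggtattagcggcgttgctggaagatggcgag
Pacrgl, plus strand, chr5:48372142-48372441: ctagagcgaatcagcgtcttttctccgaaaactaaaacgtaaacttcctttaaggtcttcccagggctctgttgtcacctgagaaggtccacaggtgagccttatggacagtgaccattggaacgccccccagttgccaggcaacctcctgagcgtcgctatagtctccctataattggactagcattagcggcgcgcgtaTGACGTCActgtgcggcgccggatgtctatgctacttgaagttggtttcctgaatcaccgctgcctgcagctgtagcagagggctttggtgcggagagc
Syn1, minus strand, chrX:20920869-20921168: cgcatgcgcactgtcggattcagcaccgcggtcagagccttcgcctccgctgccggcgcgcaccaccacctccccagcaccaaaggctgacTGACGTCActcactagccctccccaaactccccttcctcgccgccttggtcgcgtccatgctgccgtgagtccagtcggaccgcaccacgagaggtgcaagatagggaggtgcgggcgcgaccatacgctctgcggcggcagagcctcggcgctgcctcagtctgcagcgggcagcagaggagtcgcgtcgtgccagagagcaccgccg
The element begins 49 bases before the start in Pacrgl and 159 bases before it in Syn1. It reads the same on both strands, so a single search covered both. Among 6391 tested genes with exactly 1 RefSeq window it was present in 213 (3.33%), in 12 of 193 whose siBdnf libraries all lay higher (6.22%) and in 5 of 126 whose siBdnf libraries all lay lower (3.97%). Of the genes named one by one, 23 had such a window and 2 held it. A match of letters is not a binding site, and these counts carry no test.

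Above siScramble in all 4 siBdnf libraries were 12 genes by the same rule, among them genes of peroxisomes, mitochondria and membrane traffic. Pex3, which seeds peroxisomal membranes, was at 18.2, 20.4, 19.9 and 18.02 FPKM in the siScramble libraries and 25.8, 24.3, 27.1 and 27.1 FPKM in siBdnf. The spread within each group was smaller than the gap between them, and the log2 fold change of 0.43 (SE 0.064, limma adjusted p = 0.302) had the smallest p of any gene that was higher. Glud1, the mitochondrial glutamate dehydrogenase, was at 55.4, 46.8, 57.01 and 61.8 FPKM in siScramble and 68.7, 69.98, 71.999 and 75.6 FPKM in siBdnf (log2 fold change 0.37, limma adjusted p = 0.604). Its siHdac4 values, 52.9, 57.01, 58.1 and 59.2 FPKM, lay within the siScramble range. Sugct, a mitochondrial coenzyme A transferase of glutarate metabolism, was at 3.52, 3.43, 3.58 and 3.71 FPKM and 5.38, 4.63, 4.63 and 4.56 FPKM (log2 fold change 0.34, limma adjusted p = 0.620), and siBdnf library 1 stood above the other 3.

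Rab8a, a GTPase of exocytic and ciliary traffic, was at 27.4, 19.7, 25.96 and 25.8 FPKM in siScramble and 31.4, 36.3, 33.9 and 35.4 FPKM in siBdnf (log2 fold change 0.46, limma adjusted p = 0.604). Leprotl1, an endosomal membrane protein gene, was at 14.8, 19.9, 18.7 and 22.3 FPKM and 26.2, 26.3, 31.9 and 25.8 FPKM (log2 fold change 0.53, limma adjusted p = 0.620). Smyd3, a lysine methyltransferase, was at 19.9, 18.8, 25.6 and 27.6 FPKM and 30.7, 39.3, 37.5 and 35.6 FPKM (log2 fold change 0.63, limma adjusted p = 0.596). In siScramble libraries 3 and 4 Smyd3 was nearer to the siBdnf values than in libraries 1 and 2. Nat1, an arylamine N-acetyltransferase, was at 5.07 ± 1.54 FPKM in siScramble and 9.74 ± 1.43 in siBdnf, and Creld1, a gene of the endoplasmic reticulum and of heart development, was at 14.3 ± 2.23 FPKM in siScramble and 19.99 ± 1.60 in siBdnf (SD, n = 4 each). In siHdac4, Nat1 was at 7.99, 10.5, 10.8 and 6.09 FPKM. Its log2 fold change against siScramble was 0.70 there, beside 0.85 in siBdnf. Among zinc-finger genes, Zfp280d was at 31.4 ± 3.09 FPKM in siScramble and 40.04 ± 1.19 in siBdnf and Zfp69 was at 0.600 ± 0.198 FPKM in siScramble and 1.52 ± 0.296 in siBdnf (SD, n = 4 each), and Zfp69 passed the filter on the mean through siBdnf. Thnsl1, related to bacterial threonine synthase, was at 11.7 ± 0.520 FPKM in siScramble and 14.7 ± 0.854 in siBdnf (SD, n = 4 each). Ssxb2 was also low, at 1.18, 1.05, 1.09 and 0.666 FPKM in siScramble and 1.51, 2.19, 2.17 and 1.98 FPKM in siBdnf.

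Genes averaging 50 FPKM or more were also named whatever the size of their change. Rabep1, the rabaptin-5 effector of early endosomes, was at 127, 118, 128 and 123 FPKM in siScramble and 143, 146, 152 and 143 FPKM in siBdnf, and its siHdac4 values of 146, 155, 139 and 139 FPKM overlapped those of siBdnf only. Atf4, the transcription factor of the integrated stress response, was at 65.6, 64.8, 56.1 and 62.6 FPKM and 76.2, 77.6, 70.96 and 76.7 FPKM (log2 fold change 0.27, limma adjusted p = 0.620). Ppa1, the cytosolic pyrophosphatase, was at 56.8 ± 3.64 FPKM in siScramble and 68.02 ± 1.58 in siBdnf (SD, n = 4 each). In the lower direction Sparc, a matricellular protein gene of glia and vessels, was at 69.8 ± 6.36 FPKM in siScramble and 56.9 ± 2.58 in siBdnf, and Nisch, encoding the integrin-binding protein nischarin, was at 59.4 ± 1.48 FPKM in siScramble and 50.2 ± 3.87 in siBdnf (SD, n = 4 each). The merged locus of Chd3, a nucleosome remodeller of the NuRD complex, and Gm22442 was at 1080.5, 973, 572 and 549 FPKM in siScramble and 487, 443, 446 and 402 FPKM in siBdnf. Its siHdac4 values, 891, 819, 1078.5 and 844 FPKM, lay above every siBdnf value, and reads of the 2 genes cannot be told apart in a merged locus.

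**Figure D3:**
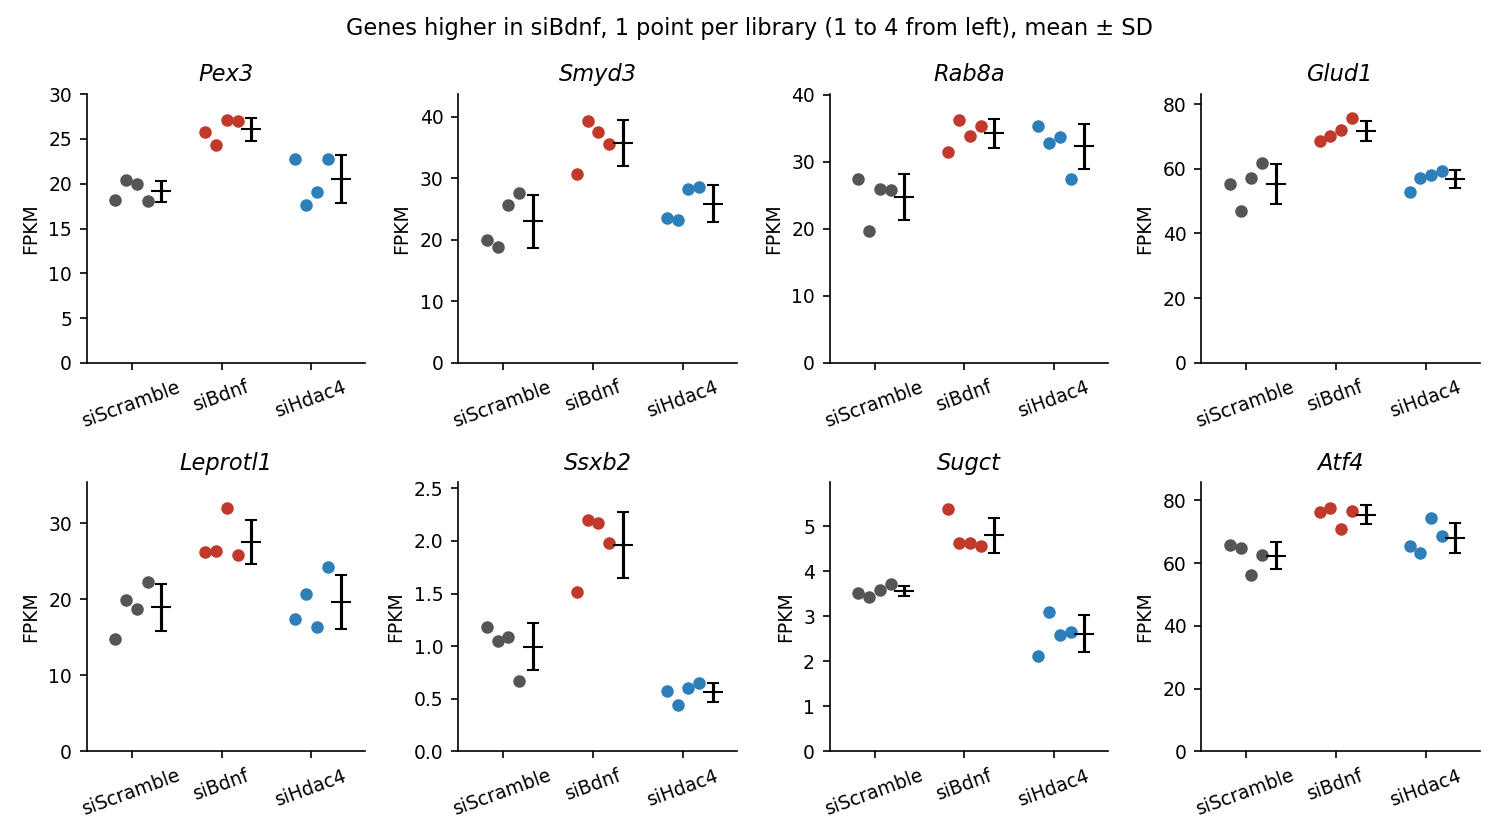
FPKM of 8 genes that were higher in all 4 siBdnf libraries than in all 4 siScramble libraries, with 1 point per library in the order 1 to 4 and the group mean ± SD (n = 4). For Ssxb2 and Sugct the siHdac4 points lie below the siScramble points, while for Rab8a 3 of the 4 siHdac4 points lie with siBdnf.

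The siHdac4 libraries allow the 2 targeted siRNAs to be compared without siScramble in the difference. Both comparisons with siScramble share its 4 libraries, so their values are set side by side and not correlated. Cpd had a log2 fold change against siScramble of −0.61 in siBdnf and −0.42 in siHdac4, where its values were 23.7, 17.4, 16.9 and 15.5 FPKM, and the difference between both siRNA groups was −0.19 (limma adjusted p = 0.409). Pacrgl had −1.51 and −0.93, with siHdac4 values of 6.41, 27.9, 4.90 and 5.31 FPKM, and a difference of −0.58 (limma adjusted p = 0.542). For neither gene was siBdnf shown to differ from siHdac4. These adjusted p come from 1 fit over 12 libraries. In that fit neither gene passed against siScramble (limma adjusted p = 0.223 for Cpd and 0.417 for Pacrgl). Over all genes, 3 passed an adjusted p of 0.05 in the siBdnf against siHdac4 contrast with limma, 0.0271% of those tested. All 3 had groups that did not overlap. A fit on the 8 siBdnf and siHdac4 libraries alone called 60 genes.

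Ssxb2 was at 0.570, 0.437, 0.601 and 0.646 FPKM in siHdac4, so that siScramble lay between the siRNA groups, and the difference of siBdnf from siHdac4 was 0.92 on the log2 scale (limma adjusted p = 0.0226). With means under 1 FPKM in siScramble and siHdac4, Ssxb2 passed the filter through siBdnf, which favours this direction. Sugct was at 2.12, 3.11, 2.59 and 2.65 FPKM in siHdac4, again on the other side of siScramble, with a difference of 0.69 (limma adjusted p = 0.0226). Hn1, a gene outside the naming rule that was chosen after its values were seen, was at 20.7, 21.1, 21.1 and 20.03 FPKM in siBdnf and 37.8, 40.3, 40.6 and 34.4 FPKM in siHdac4, a difference of −0.85 (limma adjusted p = 0.0226). In siScramble it was at 33.4, 23.4, 26.1 and 20.9 FPKM, with library 1 near the siHdac4 values.

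The gene lists were read from the receptor outward. Of 37 genes of TrkB and neurotrophin signalling, 33 were tested, 11 were higher and 22 lower, and the median log2 fold change was −0.035 beside 0.0021 for all genes. The receptor gene Ntrk2 was at 256, 244, 299 and 260.2 FPKM in siScramble and 215, 240.2, 240.2 and 245 FPKM in siBdnf, groups that overlapped (log2 fold change −0.17, limma adjusted p = 0.660). Kidins220, a scaffold of TrkB, was at 85.6 ± 3.76 FPKM in siScramble and 92.2 ± 1.55 in siBdnf (SD, n = 4 each). Furin, the convertase that can cut the BDNF precursor, was the 1 member with an unadjusted limma p below 0.05 (3.03% of the list, beside 7.52% of all genes). It was at 3.39, 3.73, 4.19 and 3.96 FPKM in siScramble and 3.15, 2.85, 2.67 and 1.61 FPKM in siBdnf (log2 fold change −0.45, limma adjusted p = 0.633). Its siHdac4 values ran from 2.50 to 7.28 FPKM and overlapped both groups. Prohormone processing and dense-core vesicle genes, a list that holds Cpd and Furin, had 19 of 23 members tested, with 3 higher and 2 lower at an unadjusted limma p below 0.05 (26.3% of the list, beside 7.52% of all genes in both directions) and a median of 0.064. Without siScramble libraries 1 and 3 the list had 0 higher and 3 lower at that p and a median of 0.030. In the same fit 582 of all 11071 genes were higher and 394 lower at that p. Scg5, the chaperone of the convertase PC2, was at 119.8, 152, 153 and 151 FPKM in siScramble and 172, 159, 162 and 172 FPKM in siBdnf, groups that did not overlap, with siScramble library 1 low in its own.

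Genes that neuronal activity and BDNF are known to induce held more members that were higher than lower, none of them called. Of 36 tested of 42, 25 were higher, none had an unadjusted limma p below 0.05 in either direction, and the median was 0.090. It was 0.086 in siHdac4 against the same siScramble libraries, of which libraries 3 and 4 had the 2 lowest levels of the list. Arc, whose product acts at synapses and in spines, was at 29.02, 30.3, 19.2 and 15.02 FPKM in the siScramble libraries and 29.01, 37.1, 23.2 and 27.6 FPKM in siBdnf, and the groups overlapped (limma adjusted p = 0.739). In the authors' deposited table Arc had a log2 fold change of 0.32 and an FDR of 0.0334. Vgf, a neuropeptide precursor gene, was at 8.88 ± 1.64 FPKM in siScramble and 10.3 ± 0.955 in siBdnf, and Homer1, a postsynaptic scaffold gene, was at 19.9 ± 1.31 FPKM in siScramble and 21.7 ± 1.27 in siBdnf (SD, n = 4 each).

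The WAVE complex and actin list had 30 of 32 members tested and held 4 lower and 0 higher genes at an unadjusted limma p below 0.05, beside 3.29% lower and 4.24% higher of all genes tested. Groups were apart at 3 lower members and 1 higher member, beside 2.0% and 3.13% of all genes. The 4 were Wasf1, Wasl, Rac1 and Actr2 of the Arp2/3 complex, which was at 67.4 ± 1.96 FPKM in siScramble and 61.6 ± 3.19 in siBdnf (SD, n = 4 each). Of the whole list 16 members were higher, the median was 0.023, and it turned to −0.0048 without siScramble libraries 1 and 3. Glutamate receptor and postsynaptic genes (37 of 41 tested) had no member under an unadjusted p of 0.05 and a median of 0.018. Presynaptic release genes (29 of 33) had 2 in each direction at that p and a median of −0.019. These were 13.8% of the list, beside 7.52% of all genes in both directions. Among them Rims1, an active-zone scaffold gene, was at 130.3, 156, 159 and 156 FPKM in siScramble and 136, 136, 128 and 126 FPKM in siBdnf, with siScramble library 1 inside the siBdnf range. GABA system genes (32 of 33) had 22 lower members and a median of −0.049. The vesicular transporter gene Slc32a1 was at 1.92 ± 0.545 FPKM in siScramble and 1.24 ± 0.207 in siBdnf, while the receptor subunit gene Gabrb2 was at 64.8 ± 2.46 FPKM in siScramble and 71.9 ± 2.60 in siBdnf (SD, n = 4 each), with groups apart in the higher direction.

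Markers of the hippocampal fields, of glia and of vessels had medians within 0.1 of 0. The medians were 0.086 for 10 granule cell markers, −0.064 for 8 CA1 markers, −0.0089 for 13 CA2 and CA3 markers, −0.010 for 21 oligodendrocyte genes, 0.012 for 19 astrocyte genes, −0.018 for 20 microglial genes and −0.024 for 17 vascular genes. Without siScramble libraries 1 and 3 the granule cell median was 0.16 and that of CA1 was −0.17. Of the 10 granule cell markers 7 were higher and 3 lower in the 8 libraries, with log2 fold changes from −1.07 to 0.43. At an unadjusted limma p below 0.05, 1 of them was higher and 1 lower, beside 4.24% and 3.29% of all genes. In bulk RNA, fewer cells of a type and less RNA per cell cannot be told apart. Groups were apart in the lower direction at 1 granule cell, 1 CA1, 1 CA2 or CA3 and 2 microglial markers, and in the higher direction at 0 of these, beside 2.0% and 3.13% of all genes. Pdzd2 of granule cells was at 11.3 ± 2.03 FPKM in siScramble and 7.86 ± 0.855 in siBdnf (SD, n = 4 each), with a log2 fold change of −0.47. The others in the hippocampal fields were Man1a of CA1, at 28.3 ± 2.20 FPKM in siScramble and 24.4 ± 0.143 in siBdnf, and Amigo2 of CA2, at 10.3 ± 0.617 FPKM in siScramble and 8.68 ± 0.650 in siBdnf (SD, n = 4 each). Of the 20 microglial genes 8 were higher and 12 lower, with log2 fold changes from −0.40 to 0.61. At an unadjusted limma p below 0.05, 1 was higher and 3 lower (20% of the list, beside 7.52% of all genes in both directions). Among microglial complement genes, C1qc was at 13.1, 13.8, 14.01 and 12.3 FPKM in siScramble and 12.3, 10.4, 11.8 and 10.7 FPKM in siBdnf. The groups of C1qb overlapped, and its siScramble values of 11.9, 7.75, 12.6 and 7.67 FPKM were highest in libraries 1 and 3. The defining microglial gene Cx3cr1 was at 8.35 ± 0.716 FPKM in siScramble and 8.29 ± 0.827 in siBdnf (SD, n = 4 each), with a log2 fold change of −0.011. Gfap of astrocytes was at 74.6 ± 6.91 FPKM in siScramble and 75.04 ± 1.83 in siBdnf and had a log2 fold change of 0.012. Adult neurogenesis genes (16 of 23 tested) had 12 higher members and a median of 0.12, which was 0.028 without siScramble libraries 1 and 3. Neurod2, a factor of young and mature excitatory neurons, was at 24.1, 23.5, 27.6 and 30.97 FPKM in siScramble and 30.6, 34.2, 29.7 and 34.6 FPKM in siBdnf.

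**Figure D4:**
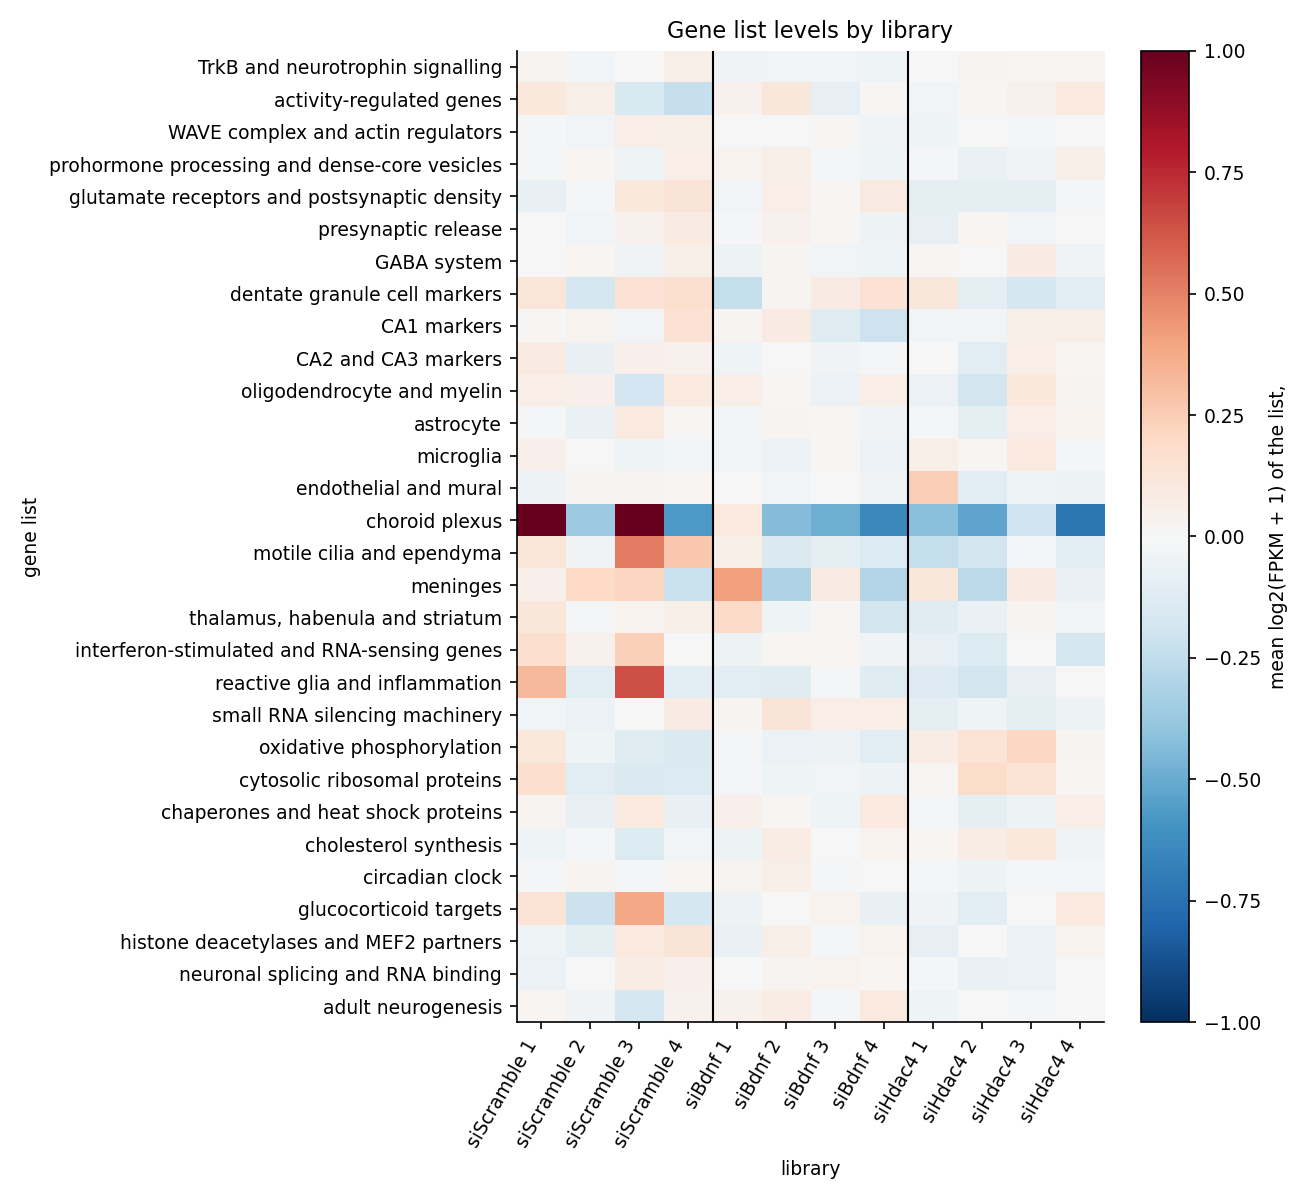
Mean log2(FPKM + 1) of each gene list in each of the 12 libraries, minus the mean of the list over the libraries, with colours limited at −1 and 1. The choroid plexus row is high in siScramble libraries 1 and 3, as are, less so, the rows of reactive glia and of motile cilia in library 3, while most neuronal and glial rows are pale in all 3 groups.

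The choroid plexus list had the median farthest from 0 of all lists, and it followed siScramble libraries 1 and 3. All 17 choroid plexus genes tested of 20 were lower in siBdnf, with a median of −1.08, and none had an unadjusted limma p below 0.05. Ttr, the thyroid hormone carrier that defines this epithelium, was at 809.7, 17.9, 1977.2 and 9.99 FPKM in the siScramble libraries and 77.1, 27.7, 21.01 and 14.3 FPKM in siBdnf, so that siScramble libraries 2 and 4 lay in or below the siBdnf range. Kcne2, a potassium channel subunit gene, was at 8.22, 0.298, 17.3 and 0.139 FPKM and 0.723, 0.282, 0.136 and 0.153 FPKM. Of the 17 members, 8 had a mean under 1 FPKM in siBdnf, Kcne2 among them, so that they passed the filter through siScramble and their direction was set by it. Without siScramble libraries 1 and 3 the list median was 0.10 and 10 of 17 members were higher. The median in siHdac4 against the same siScramble libraries was −1.16.

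Motile cilia and ependyma genes, of the cells that line the same ventricles, were also mostly lower. Of 23 tested of 30, 21 were lower, 6 had an unadjusted limma p below 0.05 (26.1% of the list), all lower, beside 3.29% of all genes, and the median was −0.23. Without siScramble libraries 1 and 3 the median was −0.14 and 8 of 23 were higher. The mean log2(FPKM + 1) of the list was 2.84, 2.68, 3.23 and 2.99 in the siScramble libraries and 2.78, 2.57, 2.63 and 2.58 in siBdnf. Without siScramble libraries 3 and 4, a choice made after seeing the data, the median was −0.036. Dynlrb2, a dynein light chain gene, was at 4.33, 2.85, 6.39 and 4.75 FPKM in siScramble and 2.11, 1.34, 2.13 and 2.45 FPKM in siBdnf, and its groups did not overlap. Ak7, an adenylate kinase of cilia, was at 8.41, 14.8, 16.2 and 12.4 FPKM and 8.74, 6.58, 5.52 and 7.47 FPKM, where siScramble library 1 lay in the siBdnf range. Foxj1, the transcription factor that defines motile ciliated cells, was at 1.60, 1.96, 4.62 and 2.09 FPKM in siScramble and 2.20, 2.09, 1.90 and 2.17 FPKM in siBdnf, so that siScramble library 3 alone was high. Dynlrb2 and Cfap52 were the 2 members of 23 whose groups did not overlap, beside 2.0% of all genes in the lower direction. Of the 23 members, 1 had a mean under 1 FPKM in siBdnf only and passed the filter through siScramble. The list median in siHdac4 against the same siScramble libraries was −0.38. Whether the share of ventricle wall in the dissected tissue had a part in these values was not tested.

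Meningeal genes (18 of 19 tested) had a median of −0.039, with Dcn, a collagen-binding proteoglycan gene, at 47.1 ± 7.74 FPKM in siScramble and 44.6 ± 7.04 in siBdnf (SD, n = 4 each). Genes of thalamus, habenula and striatum (15 of 20) had a median of −0.088. Tac2, a neuropeptide gene of the habenula, was at 13.7, 2.14, 0.703 and 1.44 FPKM in siScramble and 84.6, 1.30, 1.92 and 0.668 FPKM in siBdnf, where libraries numbered 1 in both groups stood alone. Of 7 red blood cell genes a single one was tested, Hbb-bs, at 25.97 ± 14.4 FPKM in siScramble and 23.97 ± 4.01 in siBdnf (SD, n = 4 each).

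Genes that foreign RNA is known to induce were more often lower than higher, none of them called. Interferon-stimulated and RNA-sensing genes (22 of 38 tested) had 5 higher and 17 lower members and a median of −0.11, which was −0.035 without siScramble libraries 1 and 3. Of the 22, 2 had a mean under 1 FPKM in siBdnf only and 1 in siScramble only. Lgals3bp, a secreted glycoprotein gene of this list, was at 4.13, 3.41, 3.81 and 2.49 FPKM in siScramble and 2.44, 1.92, 1.58 and 2.26 FPKM in siBdnf, with groups that did not overlap (log2 fold change −0.54, limma adjusted p = 0.633). Since siScramble is itself an siRNA, a response common to both groups would not show here. Reactive glia genes (13 of 30) had a single higher member and a median of −0.15, against 0.060 without siScramble libraries 1 and 3. Of the 13, 3 had a mean under 1 FPKM in siBdnf only, Lcn2 among them. They passed the filter through siScramble, which favours the lower direction. Lcn2, an acute-phase gene, was at 1.76, 0, 17.3 and 0 FPKM in siScramble and 0.171, 0, 0.290 and 0 FPKM in siBdnf, so that siScramble library 3 stood alone.

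The machinery that small RNAs use had 16 of 24 members tested, 3 of them higher at an unadjusted limma p below 0.05 and none lower, beside 4.24% and 3.29% of all genes, with a median of 0.059. With siScramble libraries 1 and 3 left out, 1 member was higher and 0 lower at that p, beside 582 and 394 of all 11071 genes. Tnrc6a, encoding the GW182 partner of Argonaute, was at 32.9, 28.2, 69.2 and 59.4 FPKM in siScramble and 56.3, 88.2, 82.1 and 89.5 FPKM in siBdnf, where siScramble libraries 3 and 4 reached into the siBdnf range (log2 fold change 0.80, limma adjusted p = 0.633). Its siHdac4 values were 44.2, 35.3, 35.95 and 36.3 FPKM, and the difference between the siRNA groups was 1.02 (limma adjusted p = 0.234). Dgcr8, the partner of Drosha in microRNA processing, was at 19.5, 19.6, 18.4 and 21.02 FPKM and 22.6, 21.4, 21.3 and 25.7 FPKM. Xpo5, which exports microRNA precursors from the nucleus, was at 17.5, 17.7, 16.97 and 18.6 FPKM and 20.8, 19.3, 18.9 and 19.8 FPKM, and both genes had groups apart.

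Housekeeping lists had medians within 0.1 of that of all genes. Oxidative phosphorylation genes (66 of 76 tested) split into 33 higher and 33 lower with a median of 0.00095, and 6 members had groups apart in the higher direction and 0 in the lower, beside 3.13% and 2.0% of all genes. An unadjusted limma p below 0.05 was met by 6 higher and 2 lower members (12.1% of the list, beside 7.52% of all genes in both directions). The median was 0.032 without siScramble libraries 1 and 3, and 0.15 in siHdac4 against all 4 siScramble libraries. Ndufa9 of complex I was at 33.3 ± 1.54 FPKM in siScramble and 39.2 ± 2.06 in siBdnf (SD, n = 4 each). Cytosolic ribosomal protein genes (66 of 79) had a median of 0.015, and Rps9 was at 83.3 ± 7.10 FPKM in siScramble and 96.4 ± 1.34 in siBdnf (SD, n = 4 each), with groups that did not overlap. The ribosomal median was 0.077 without siScramble libraries 1 and 3, with 46 of 66 higher, beside 5803 of all 11071 genes. It was 0.15 in siHdac4 against all 4 siScramble libraries. The mean log2(FPKM + 1) of the list was 5.29 in siScramble library 1 and at most 5.02 in the others of that group. Ribosomal protein genes have near-identical pseudogenes, so their values are uncertain. Chaperone genes (51 of 54) had 34 higher members and a median of 0.044. Without siScramble libraries 1 and 3 the median was 0.088 with 44 of 51 higher, again beside 5803 of all 11071 genes. Hspd1, the mitochondrial chaperonin gene, was at 56.1, 61.8, 63.2 and 59.8 FPKM in siScramble and 70.8, 70.9, 67.2 and 71.6 FPKM in siBdnf (log2 fold change 0.22, limma adjusted p = 0.620).

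Cholesterol synthesis genes (22 of 27) had 18 higher members and a median of 0.083, beside 0.098 in siHdac4. An unadjusted limma p below 0.05 was met by 2 members (9.09% of the list, beside 7.52% of all genes in both directions). Sc5d, an enzyme late in the pathway, was at 14.2, 15.3, 14.6 and 13.9 FPKM in siScramble and 15.9, 16.5, 16.4 and 16.8 FPKM in siBdnf. Insig1, which holds the SREBP activator in the endoplasmic reticulum, was at 21.6, 25.5, 20.8 and 23.5 FPKM and 24.7, 27.3, 26.98 and 27.1 FPKM, overlapping by siScramble library 2. The medians of the remaining lists were 0.019 for 21 clock genes, 0.026 for 20 glucocorticoid targets, −0.0013 for 21 histone deacetylase and MEF2 genes and 0.0014 for 29 neuronal RNA-binding genes. The glucocorticoid list moved to 0.14 without siScramble libraries 1 and 3.

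**Figure D5:**
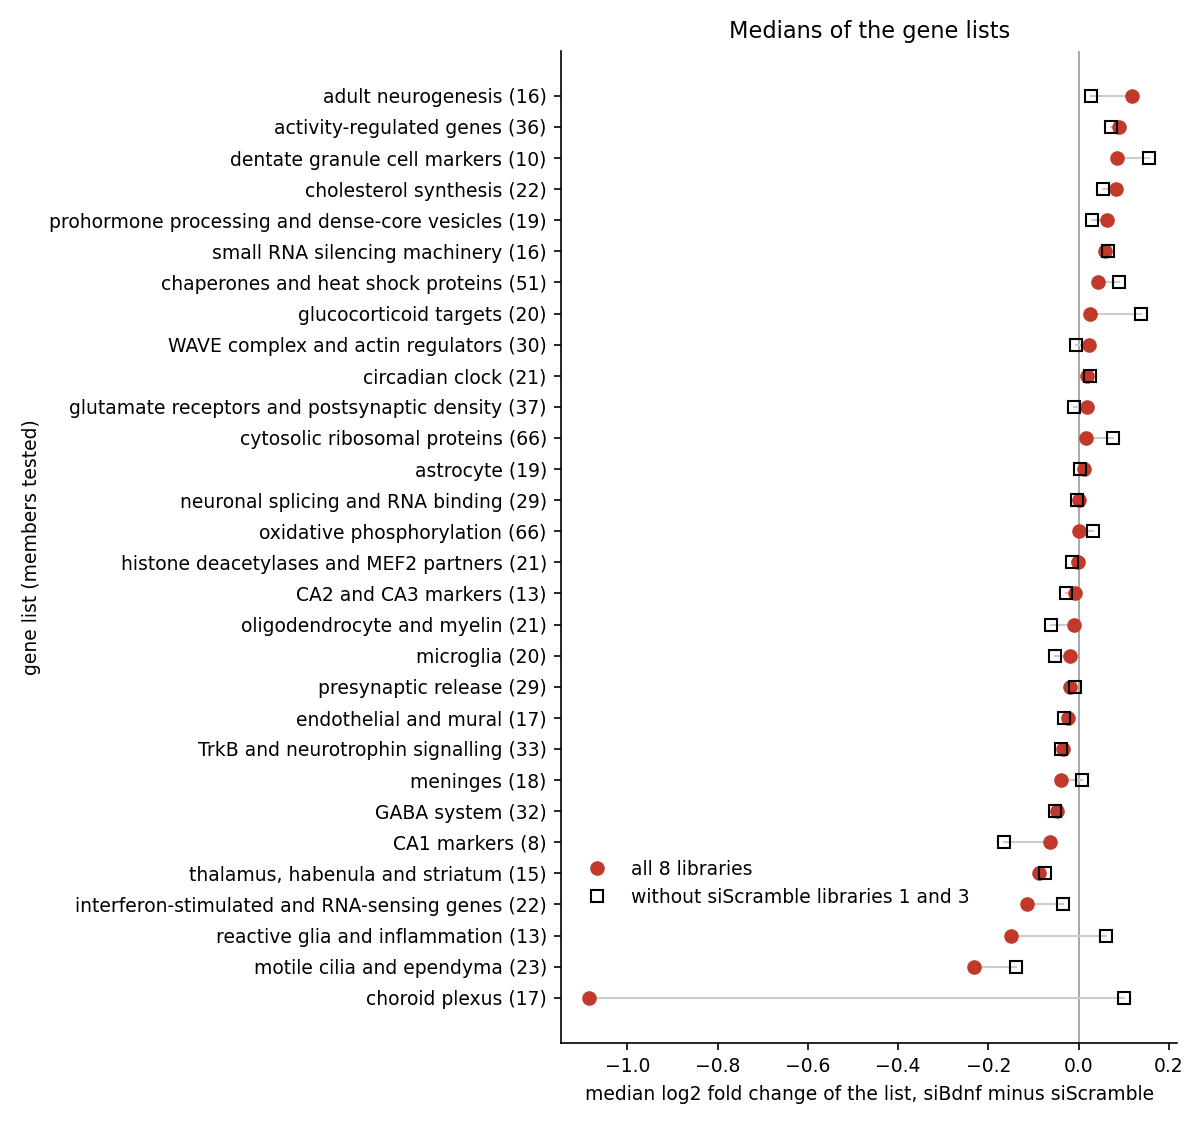
Median log2 fold change (siBdnf minus siScramble) of each gene list with the number of members tested, from all 8 libraries (filled circles) and without siScramble libraries 1 and 3 (open squares). The choroid plexus median moves from −1.08 to 0.10 and that of reactive glia from −0.15 to 0.060, while that of motile cilia stays below 0 at −0.14.

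The authors' own calls were compared with the values behind them. In the authors' deposited table, 18 of the 11071 genes were higher (0.163%) and 64 were lower (0.578%) in siBdnf at an FDR below 0.05. Of the 64 lower ones, 44 had siScramble libraries 1 and 3 above the other 6 libraries, an order that 646 of all genes tested showed (5.84%). The choroid plexus list gave 16 of the 64. Among the 82 calls, 22 had a highest library at least 3 times the next one, which 34 genes of all tested had. Examples chosen after their values were seen are Gm12176,Sgcd, a merged locus at 14.1, 188, 20.8 and 15.9 FPKM in siBdnf, and Mettl14, a subunit of the RNA methyltransferase, at 8.86, 7.89, 9.83 and 65.4 FPKM in siScramble.

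Groups did not overlap at 9 of the authors' 82 calls (11.0%), 4 higher and 5 lower, beside 567 of all genes tested (5.12%), and Cpd was the 1 that also passed limma's adjusted threshold. The other 8 are named here after their values were seen. Polr2a, encoding the largest subunit of RNA polymerase II, was at 8.17, 7.73, 10.1 and 9.94 FPKM in siScramble and 5.49, 6.77, 5.67 and 7.30 FPKM in siBdnf. Apln, the gene of the peptide apelin, was at 2.94, 3.99, 2.12 and 4.35 FPKM and 5.32, 5.80, 4.64 and 5.02 FPKM. In both genes the nearest values of the 2 groups lay close together. Syf2, a splicing factor gene, was at 57.1, 56.4, 75.1 and 81.2 FPKM in siScramble and 88.7, 88.8, 84.7 and 89.7 FPKM in siBdnf, and its siHdac4 values of 65.1, 58.1, 63.7 and 73.5 FPKM lay with siScramble. Arxes2 was at 14.7, 14.7, 18.8 and 21.98 FPKM and 22.97, 23.2, 22.2 and 24.2 FPKM, and Gm9493 was at 44.5, 30.1, 47.02 and 48.7 FPKM and 60.3, 56.8, 55.9 and 62.96 FPKM. Tcn2, a cobalamin carrier gene, was at 5.64, 4.81, 11.6 and 5.14 FPKM in siScramble and 4.41, 3.67, 3.62 and 4.17 FPKM in siBdnf. Gpx8, an endoplasmic reticulum peroxidase gene, was at 9.08, 7.57, 19.1 and 7.41 FPKM and 6.08, 5.14, 6.33 and 6.05 FPKM. Both were highest in siScramble library 3, and the values of Syn1 were given above.

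Base composition moved with the direction of the difference. Over the 10323 tested genes with a GENCODE transcript (93.2%), Spearman's correlation between the log2 fold change and transcript GC content was −0.134, and with length −0.065, across genes that share the same 8 libraries. In 4 bins of GC content with equal numbers of genes, from the lowest to the highest, 127, 99, 57 and 41 genes had siBdnf wholly above siScramble, and 38, 55, 52 and 66 had it wholly below. After each library was corrected for its dependence on transcript length and GC content, the log2 fold change of Cpd was −0.59 (limma adjusted p = 0.0348), and Pacrgl was not among the genes with a transcript value.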

How the data were processed

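Poly-A selected RNA of mouse hippocampus was sequenced, per the labels' protocols. TopHat2 2.0.9, Cufflinks and Cuffdiff are named in the submitters' processing notes; no build, annotation or handling of strand is stated in them or in the labels. The deposited table holds FPKM values per locus and library, which the authors normalized for length and depth, and the authors' log2 fold changes, p-values and FDR. FPKM are not counts, so no count model was used, and the depth of each library is unknown except for the relative read values given above.

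Protein-coding loci whose 8 libraries averaged at least 1 FPKM, and that were not at 0 throughout a group, were tested on log2(FPKM + 1), a scale that understates the change of low genes, with limma 3.58.1 (intensity trend, 4 libraries against 4, no covariate; R 4.3.3) and Benjamini-Hochberg adjustment over all 11071 genes. The siBdnf against siHdac4 contrast used 1 fit over 12 libraries, whose siScramble columns are identical in both deposited tables. Libraries were grouped by the labelled treatment. The test was checked on simulated data.

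Named one by one were, per direction, the 12 genes of smallest p whose groups did not overlap and whose log2 fold change was at least 0.3 in size, and the 4 such genes of any change with a mean of at least 50 FPKM; predicted genes were left out. In each gene list up to 4 members of smallest p and its defining members could be named. The members, the lists and the rules were chosen with earlier results of these data known. Overlapping loci and transcript lengths were read from GENCODE and promoters from RefSeq, both on GRCm38; 98.7% of same-named loci overlapped their GENCODE gene. Alternatives were other pseudocounts, filters, scalings, variance models, a replicate block and left-out libraries. Values were prepared with Python 3.11.15 (numpy 2.4.6, pandas 2.3.3, matplotlib 3.10.9). Some items are not reported here.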

Additional observations from a re-analysis of the deposited data

Results flagged for a closer look

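A library far from the other 3 of its group, by Dixon's test at the 95% level, was found in 24 of 378 groups of 4 tested (6.35%). The rate of about 1 in 20 that belongs to this level is for independent, unselected groups. Many of these genes were chosen for their differences and also belong to the lists, so that rate is no yardstick here. Of these 24, 6 fell in each of siScramble libraries 1 and 3 and siBdnf library 1.

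In siScramble library 3, Plin4 was at 5.73 FPKM with the others at no more than 0.733, Igf2 at 38.2 with the others at no more than 12.8, Lcn2 at 17.3 with the others at no more than 1.76, Ppp1r1b at 7.75 with the others at no more than 4.38 and Foxj1 at 4.62 with the others at no more than 2.09. Aqp4, the water channel gene of astrocytes, was low there at 28.9 FPKM beside at least 45.3 in the others.

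In siScramble library 1, Abcg4 was at 18.9 FPKM and Tac2 at 13.7, above the others, while Scg5 was at 119.8 and Rims1 at 130.3, below them. The mean log2(FPKM + 1) of cytosolic ribosomal protein genes was 5.29 there beside at most 5.02 in the others, and that of vascular genes was 2.89 beside at least 2.96. In siScramble library 2, Hdac1 was low at 6.40 FPKM, and the mean level of dentate granule cell markers was low at 3.68 beside at least 3.98.

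In siBdnf library 1, Tac2 was at 84.6 FPKM beside at most 1.92 in the others, Zfp69 at 1.96, Sugct at 5.38 and Igfbp2 at 10.4 were high, and Ntrk2 at 214.6 and Insig1 at 24.7 were low. The remaining ones were Osmr at 2.45 FPKM in siBdnf library 2, Leprotl1 at 31.9 FPKM in siBdnf library 3, the reactive glia list at a mean log2(FPKM + 1) of 2.31 in siBdnf library 3, and Abcg4 at 8.46 FPKM in siBdnf library 4.

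The siBdnf and siHdac4 groups differed in their distance from siScramble at 2 genes named by the rule, Ssxb2 with a difference of 0.92 and Sugct with a difference of 0.69 on the log2 scale (limma adjusted p = 0.0226 for each), and Ssxb2 passed the filter on the mean through siBdnf. Among rows set aside for being listed at 0 in all siScramble libraries, Ptpn20 was at 39.5 FPKM in siBdnf library 1 and Dgat2l6 at 10.5 FPKM in siBdnf library 4, with 0 in the other 3 siBdnf libraries.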

How the results depend on the processing

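The 2 calls rest on little margin. With limma, 1 gene passed an adjusted p of 0.05 when all gene types were tested, after quantile normalization, without the variance trend, and after correction for length and GC content. None passed with all 12 libraries in 1 fit (adjusted p = 0.223 for Cpd and 0.417 for Pacrgl), with a replicate block, or without siScramble libraries 1 and 3, and 0 to 2 passed with 1 library left out. With rows at 0 throughout a group kept, 4 passed, 2 of them such rows. Without siScramble libraries 3 and 4, a choice made after seeing the data, 23 passed.

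The replicate block left 0 adjusted calls and 794 genes under an unadjusted p of 0.05, against 833. Deviations from the group mean in same-numbered libraries had correlations of 0.077, 0.0030, −0.023 and 0.11 across genes. Libraries of unlike number were not set beside them, so whether the numbers mark a shared step was not tested.

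Genes under an unadjusted p of 0.05 numbered 1358 with all gene types and 1639 without siScramble libraries 3 and 4. Genes with groups that did not overlap numbered 893 with all gene types, 2062 without siScramble libraries 1 and 3, 2713 without libraries 3 and 4, and 788 to 1096 with 1 library left out, where fewer libraries make a gap easier. The siBdnf against siHdac4 contrast called 60 genes from its 8 libraries alone, against 3. The Hdac4 log2 fold change ran from −0.059 to 0.12 with 1 library left out and was below 0 without siScramble library 2 (−0.059) and without siBdnf library 2 (−0.017). The cause was not tested.

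Of 744 list medians under alternatives, 22 moved by more than the spread between libraries. At a mean of at least 5 FPKM they were −0.077 for microglia, 0.038 for vessels, −0.45 for meninges and 0.041 for thalamus, habenula and striatum. Quantile normalization gave −0.033 for the WAVE list and 0.027 for vessels, and the length and GC correction 0.011 for vessels. Without siScramble libraries 1 and 3 they were 0.10 for choroid plexus and 0.028 for neurogenesis. Without libraries 3 and 4 they were 0.00063 for prohormone processing, −0.079 for microglia, 0.038 for vessels, −0.036 for motile cilia, −0.095 for oxidative phosphorylation and −0.66 for the red blood cell gene. With 1 library left out the WAVE median ran from −0.042 to 0.024, TrkB from −0.060 to −0.014, neurogenesis from 0.019 to 0.17 and vessels from −0.027 to 0.016.

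Of 737 values of the genes named one by one, Bdnf and Hdac4 apart, 715 kept their direction and side of the threshold, 20 lost the call, 2 gained one and 0 changed direction. Only Cpd and Pacrgl had a call to lose, so the 20 losses are theirs and most of the 715 are genes that stayed uncalled. The genes were chosen for groups that did not overlap, so leaving out libraries could not reverse their direction.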
